A study of Mus musculus with 64 samples.

Results

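The clock output transcription factors described here are Dbp, Tef, Hlf, Nfil3, Bhlhe40, Bhlhe41, Ciart and Rora, which carry the daily rhythm of the molecular clock on to other genes or feed back on it. They were chosen by name, with earlier results of these data known, as the rows of the gene count table whose Ensembl identifier belongs to these symbols, and 8 of 8 were found among 55401 genes. The 8 members were measured by RNA sequencing of polyadenylated RNA in the prefrontal cortex (PFC, which the sample labels call frontal cortex) and the whole hypothalamus of 32 male C57BL/6J mice. Chow-fed, group-housed mice of 10 weeks of age received a single intraperitoneal injection of psilocybin (3 mg/kg), a serotonergic psychedelic, or of isotonic saline as vehicle, after sham saline injections on the preceding 3 days. Both regions of each mouse were collected 3 h or 4 weeks later, in the morning, 4 h after the lights came on.

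The 8 groups (region, treatment and time) hold 8 libraries each, and 62 of the 64 libraries, with at least 1000000 counted reads, were used. The groups of vehicle-treated hypothalamus at 3 h and of psilocybin-treated PFC at 4 weeks therefore hold 7 libraries. Counted reads per library ranged from 8061033 to 70361839, with a median of 18287978.5, and the smallest count of any member in any library was 56 reads, of Nfil3. Mice collected at 4 weeks were older at collection than those collected at 3 h, and they were killed on another day, so that time since injection, age and day cannot be told apart. All mice were killed at the same hour after light onset, so the data hold no daily time course. Region labels were checked against marker genes: all 10 hypothalamic markers were lower in PFC and all 6 markers of cortical excitatory neurons were higher, by medians of -7.88 and 5.33 on the log2 scale. One library, hypothalamus after psilocybin at 4 weeks, replicate 5, stood apart from its group, with the lowest summed level of the 15 core clock genes in the group (691 CPM against a group median of 969 CPM, where CPM are counts scaled to library size with TMM factors), and the results it moved most are also given without it. A second, PFC after psilocybin at 3 h, replicate 7, had the lowest summed level of the 18 immediate early genes in its group (631 CPM against a group median of 1112 CPM, with replicates 6 and 8 near it at 731 and 729 CPM) and the highest Dbp of PFC. The study's methods also drop a library rich in wound healing and immune genes, without saying which, so it is kept here. The highest summed levels of 8 such genes were 208 CPM in hypothalamus after vehicle at 4 weeks, replicate 6, and 170 CPM in PFC after psilocybin at 3 h, replicate 5, and each library was left out in turn as an alternative.

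In the mammalian clock, CLOCK and BMAL1 (encoded by Arntl) bind E-boxes and switch on the Period and Cryptochrome genes, whose proteins in turn silence CLOCK and BMAL1. Dbp, Tef and Hlf encode the PAR bZIP activators, which bind D-boxes, and Nfil3 encodes the repressor that competes with them for the same sites. Bhlhe40 (DEC1) and Bhlhe41 (DEC2) encode basic helix-loop-helix repressors that compete for E-boxes, Ciart (CHRONO) encodes a repressor of CLOCK and BMAL1, and Rora encodes an orphan nuclear receptor that activates Arntl through ROR elements. Bhlhe40 is also known as an activity- and hormone-responsive gene outside the clock, and Rora is known for its abundance in thalamus and cerebellum.

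The promoter windows of 4 members are shown as examples with and without the canonical E-box, a site bound by CLOCK and BMAL1. Only these windows were searched, so E-boxes elsewhere in or near a gene are not covered. The RefSeq promoter table (GRCm38.p6, from 250 bases before to 50 bases after a gene start, 300 bases in all) held windows for 7 of the 8 members, 8 windows in total since Tef had 2, and none for Bhlhe40. Capitals mark the canonical E-box, CACGTG, and each sequence reads in the direction of its gene. The windows lie at chr3:95882179-95882478 (minus strand) for Ciart, chr15:81811164-81811463 (plus strand) for the downstream start of Tef, chr6:145865371-145865670 (minus strand) for Bhlhe41 and chr7:45704997-45705296 (plus strand) for Dbp.
Ciart: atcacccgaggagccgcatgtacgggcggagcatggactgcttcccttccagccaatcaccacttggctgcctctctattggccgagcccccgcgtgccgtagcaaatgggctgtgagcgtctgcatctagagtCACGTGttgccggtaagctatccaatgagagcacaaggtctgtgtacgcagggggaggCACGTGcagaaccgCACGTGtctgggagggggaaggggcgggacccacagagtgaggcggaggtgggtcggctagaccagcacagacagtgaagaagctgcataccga
Tef: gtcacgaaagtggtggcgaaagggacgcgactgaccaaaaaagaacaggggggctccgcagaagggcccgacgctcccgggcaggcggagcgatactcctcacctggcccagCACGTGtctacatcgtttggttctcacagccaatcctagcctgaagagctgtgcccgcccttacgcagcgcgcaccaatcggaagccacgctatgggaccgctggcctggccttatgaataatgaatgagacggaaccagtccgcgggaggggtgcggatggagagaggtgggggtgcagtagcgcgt
Bhlhe41: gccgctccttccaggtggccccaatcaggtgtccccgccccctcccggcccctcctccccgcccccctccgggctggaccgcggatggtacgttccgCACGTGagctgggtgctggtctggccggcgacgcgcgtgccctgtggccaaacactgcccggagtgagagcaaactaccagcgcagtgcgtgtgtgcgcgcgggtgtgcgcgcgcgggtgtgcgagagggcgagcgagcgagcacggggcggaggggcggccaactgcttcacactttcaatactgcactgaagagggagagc
Dbp: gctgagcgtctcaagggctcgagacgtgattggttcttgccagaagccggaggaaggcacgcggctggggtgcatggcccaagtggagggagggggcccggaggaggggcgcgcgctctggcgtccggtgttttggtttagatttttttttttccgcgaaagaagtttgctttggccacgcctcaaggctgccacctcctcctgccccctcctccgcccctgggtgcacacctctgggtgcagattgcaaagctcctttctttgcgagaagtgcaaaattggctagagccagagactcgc

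Ciart held 3 E-boxes, with their first letters at positions -116, -58 and -44 from the gene start. Tef held 1 in each window (at -127 and -138) and Bhlhe41 held 1 (at -153). Of 32851 promoter windows in the table, 7.15% held this motif, searched on both strands. The Dbp window held none, nor did those of Hlf, Nfil3 and Rora. No member window held a D-box (TTATGTAA, TTATGCAA or TTACGTAA, found in 0.938%, 0.743% and 0.119% of windows). The Hlf window held 1 cAMP response element (TGACGTCA, in 1.79% of windows) at -9, and the Nfil3 window held 1 ROR element (TAGGTCA, in 2.61%) on the opposite strand at -12. A match is a description of the letters in the window and not a measured binding site.

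All 8 members were detected in every library, and the same 3 members, Tef, Hlf and Bhlhe40, stood highest per transcript length in both regions. Levels between genes are given in RPKM (counts scaled to exon length and library size, computed here from the deposited counts and gene lengths), as mean ± SD over 31 libraries of a region. Tef was the most abundant in both, at 52.3 ± 4.78 RPKM in PFC and 35.1 ± 2.29 RPKM in hypothalamus. Its lowest library lay above the highest library of Hlf, the next in order, in both regions (44.3 against 43.5 RPKM in PFC and 29.8 against 26.7 RPKM in hypothalamus). Every other pair of neighbours in the order had overlapping libraries.

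In PFC, Hlf (36.2 ± 4.25 RPKM) and Bhlhe40 (31.6 ± 11.2 RPKM) came next. Dbp followed at 10.3 ± 2.86 RPKM, then Rora at 6.00 ± 1.07 RPKM. Nfil3 (4.82 ± 0.866 RPKM), Ciart (4.60 ± 0.888 RPKM) and Bhlhe41 (3.15 ± 0.522 RPKM) were lowest. Bhlhe40 thus had the widest SD of the members in PFC. In hypothalamus, Hlf stood at 20.7 ± 3.16 RPKM and Bhlhe40 at 15.9 ± 1.92 RPKM. Rora and Dbp were level there, at 11.2 ± 3.17 and 11.2 ± 2.73 RPKM. Bhlhe41 followed at 6.14 ± 0.487 RPKM, and Nfil3 (4.03 ± 0.684 RPKM) and Ciart (4.02 ± 0.591 RPKM) were lowest.

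Between the regions, 7 of the 8 members differed (edgeR's quasi-likelihood test, Benjamini-Hochberg adjusted p under 0.05), in a comparison in which 76.2% of the 18971 genes tested were called, which is the background for this count. Differences are given as log2 of PFC over hypothalamus with SE. Among the PAR bZIP activators, Tef was higher in PFC by 0.57 ± 0.0281 (adjusted p = 7.84e-27) and Hlf by 0.81 ± 0.0466 (adjusted p = 9.15e-24), by edgeR's test. Dbp stood at -0.12 ± 0.0679 and was not called (adjusted p = 0.106). With each mouse as a block, which the design allows since both regions come from the same animal, the Dbp difference was -0.12 and passed (adjusted p = 0.0379, edgeR).

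Of the repressors, Bhlhe40 was higher in PFC by 0.91 ± 0.0525 (adjusted p = 8.11e-24, edgeR), while its close relative Bhlhe41 was lower by -0.97 ± 0.0423 (adjusted p = 1.09e-29, edgeR). Bhlhe40 stood above Bhlhe41 in RPKM in both regions, and the sign of the difference between regions was opposite for the paralogs. Nfil3 was higher in PFC by 0.25 ± 0.0623 (adjusted p = 0.000249) and Ciart by 0.20 ± 0.0595 (adjusted p = 0.00274). The Ciart call was lost when no filter on low counts was used (0.15, adjusted p = 0.0544, edgeR). Rora was lower in PFC, by -0.89 ± 0.0899 (adjusted p = 2.53e-13, edgeR). Among the 15 core clock genes, 10 were called higher and 4 lower in PFC.

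Psilocybin against vehicle asks whether a single dose altered the transcriptome of either region, and none of the 8 members passed the test in either region at either time. In PFC at 3 h, 0 of 8 members were called, against 0.0105% of all genes tested (2 genes), and their log2 differences ranged from -0.20 to 0.17 with a median of -0.05, against -0.01 for all genes. The count over all genes was 1 to 11 with a single library left out (9 genes without PFC psilocybin replicate 7, 11 genes without PFC vehicle replicate 3) and 20 without both PFC psilocybin replicate 7 and hypothalamus replicate 5 of psilocybin at 4 weeks, with 0 members called in each. In PFC at 4 weeks and in hypothalamus at 3 h and at 4 weeks, 0 of 8 members and 0% of all genes were called. Unadjusted p values under 0.05 were reached by 1 member in PFC at 3 h and by 0 members in the other 3 comparisons, and by 1371, 456, 337 and 1823 of all genes in the 4 comparisons in that order. DESeq2 and limma's voom also called 0 members in all 4. Of all genes, DESeq2 called at most 19, in PFC at 4 weeks. Voom called 1232 in PFC at 3 h and 0 in the other 3 comparisons. It was run with quality weights and the animal as random block, which is the kind of model in the study's methods. The number of genes called in PFC at 3 h thus depends strongly on the method.

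The single member with an unadjusted p under 0.05 was Tef in PFC at 3 h. After vehicle its libraries ran from 398 to 490.4 CPM with a median of 442 CPM, and after psilocybin from 365 to 459.6 CPM with a median of 412 CPM. The groups overlapped. The log2 difference of psilocybin over vehicle was -0.12 ± 0.0550 (SE), with a 95% interval from -0.22 to -0.01 (unadjusted p = 0.0393, adjusted p = 0.685, edgeR). At 4 weeks the same difference was -0.03, and it was -0.02 and 0.01 in hypothalamus at 3 h and 4 weeks.

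For Dbp, often used as a readout of clock phase, the interval of the psilocybin effect in PFC at 3 h ran from -0.26 to 0.27 around 0.00. Its 8 vehicle libraries ran from 21.8 to 40.2 CPM (median 29.3 CPM) and its 8 psilocybin libraries from 17.3 to 56.8 CPM (median 28.8 CPM). The psilocybin libraries of Dbp thus spread on both sides of the vehicle libraries. The sign differed between the RNA extraction pools of PFC, with 4 libraries of each group in each pool. Psilocybin minus vehicle was -0.21 in log2 CPM in pool C and 0.17 in pool D. Without replicate 7 of the psilocybin group, the highest library, the difference was -0.13 (adjusted p = 0.695, edgeR). In hypothalamus at 3 h the interval of Dbp ran from -0.29 to 0.25. Bhlhe40 gave intervals of -0.31 to 0.09 in PFC and -0.18 to 0.24 in hypothalamus at 3 h. Differences inside these intervals are not excluded.

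Rora had the largest psilocybin difference of the members in absolute terms, in hypothalamus at 4 weeks. Its vehicle libraries ran from 106 to 204 CPM (median 166 CPM) and its psilocybin libraries from 60.0 to 198 CPM (median 137 CPM), and these ranges overlapped. The difference was -0.35 ± 0.175 (unadjusted p = 0.0532, adjusted p = 0.527, edgeR) and -0.23 (unadjusted p = 0.171) without replicate 5 of the psilocybin group, the lowest library. Thalamus markers, which moved with Rora as given further on, had median sums of 459.5 CPM after psilocybin and 490.7 CPM after vehicle in these groups. At 3 h in hypothalamus the medians were 577.5 and 435.4 CPM. Their part in the Rora values was not tested.

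The psilocybin effect at 3 h was also set against that at 4 weeks, and the effect in PFC at 3 h against that in hypothalamus, by interaction terms. In the comparisons of time in PFC, time in hypothalamus and region at 3 h, 0 of 8 members and 0% of all genes were called, with 585, 999 and 528 of all genes at an unadjusted p under 0.05. DESeq2 and limma's voom called 0 members in these 3 as well. The largest member value was again that of Rora in hypothalamus, 0.50 ± 0.252 (adjusted p = 0.904, edgeR), and 0.40 without replicate 5 of the psilocybin group at 4 weeks.

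**Figure D1:**
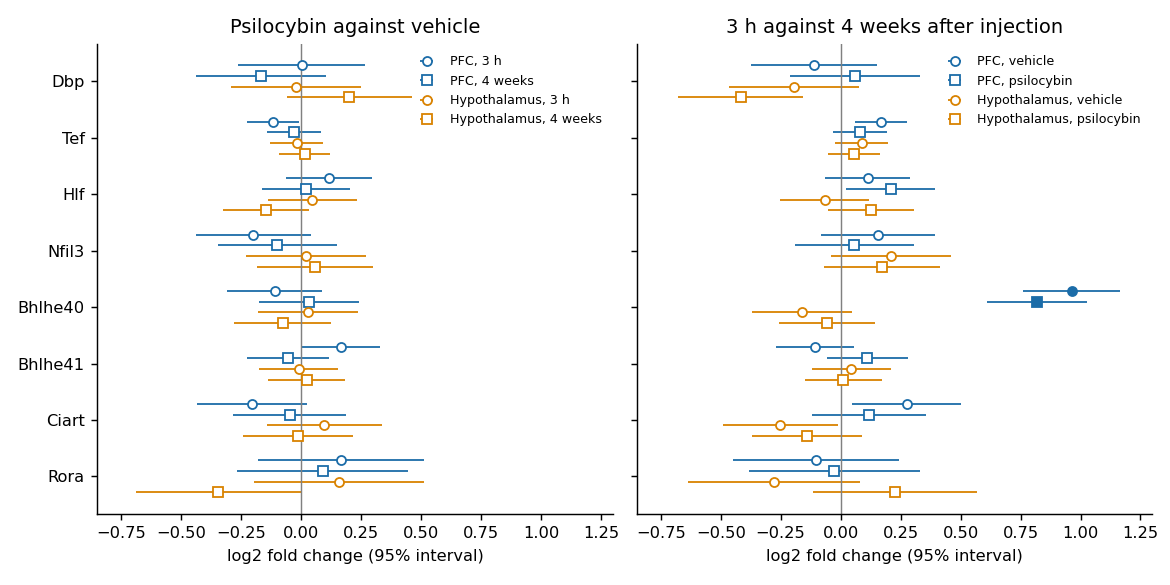
Log2 fold changes of the 8 members (rows) with 95% intervals for psilocybin against vehicle (left) and for 3 h against 4 weeks (right), in PFC (blue) and hypothalamus (orange). Filled symbols passed an adjusted p of 0.05. The filled symbols belong to Bhlhe40 in PFC, at 0.96 after vehicle and 0.82 after psilocybin, while all other symbols are open and lie between -0.42 and 0.27.

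The 3 h and 4-week collections differed most for Bhlhe40, the E-box repressor, and this held in PFC after either injection. In PFC after vehicle, its libraries ran from 140.2 to 253 CPM at 3 h (median 189 CPM, 199 ± 40.3 CPM, n = 8) and from 77.3 to 127 CPM at 4 weeks (median 99.1 CPM, 102 ± 16.2 CPM, n = 8). After psilocybin they ran from 151 to 249.6 CPM at 3 h (median 179 CPM, 184 ± 33.3 CPM, n = 8) and from 87.9 to 119.7 CPM at 4 weeks (median 103 CPM, 104 ± 11.9 CPM, n = 7). Every 3 h library of PFC lay above every 4-week library of PFC, whatever the injection.

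Bhlhe40 was higher at 3 h by 0.96 ± 0.103 on the log2 scale after vehicle (1.95-fold, 95% interval 0.76 to 1.16, adjusted p = 2.84e-09) and by 0.82 ± 0.107 after psilocybin (1.76-fold, 95% interval 0.61 to 1.03, adjusted p = 5.05e-07), by edgeR's quasi-likelihood test. By p value it ranked 2 of all 18971 genes after vehicle and 8 after psilocybin. It was the single member called in PFC, 1 of 8 after vehicle where 4.72% of all genes were called, and 1 of 8 after psilocybin where 5.96% were. The difference was similar within each RNA extraction pool of PFC libraries, at 0.87 and 1.03 after vehicle and 0.83 and 0.79 after psilocybin in pools C and D.

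**Figure D2:**
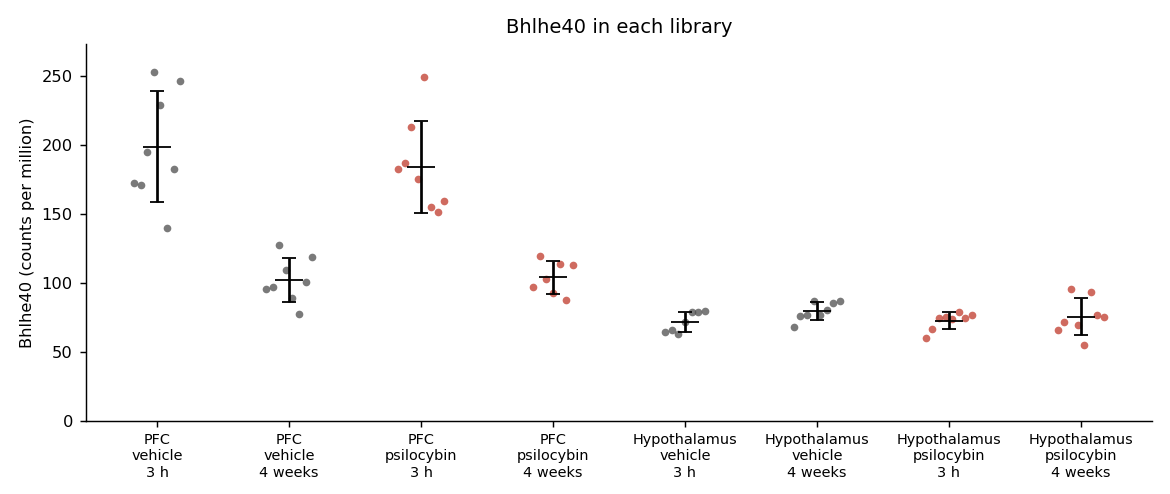
Bhlhe40 level in CPM (vertical axis) in each library, by region, treatment and time, with vehicle in grey and psilocybin in red. Bars give the mean and SD. The 3 h libraries of PFC sit at 140.2 CPM or above and the 4-week libraries of PFC at 127 CPM or below, while the hypothalamus groups lie between 55.2 and 95.4 CPM.

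In hypothalamus Bhlhe40 showed no such difference. After vehicle it ran from 62.8 to 79.9 CPM at 3 h (median 71.4 CPM, n = 7) and from 68.3 to 87.0 CPM at 4 weeks (median 78.3 CPM, n = 8). After psilocybin it ran from 60.2 to 78.6 CPM at 3 h (median 74.6 CPM) and from 55.2 to 95.4 CPM at 4 weeks (median 73.3 CPM). All these groups overlapped. The log2 differences were -0.16 ± 0.107 (adjusted p = 0.817) and -0.06 ± 0.103 (adjusted p = 0.809, edgeR), the second being -0.12 without replicate 5. No member was called in hypothalamus, 0 of 8 after vehicle where 0.685% of all genes were called and 0 of 8 after psilocybin where 1.16% were, with 1 member at an unadjusted p under 0.05 in each. Limma's voom called 1 member after vehicle, Nfil3 (0.28, adjusted p = 0.0391), which edgeR did not (0.21, adjusted p = 0.766), and DESeq2 called none in either.

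The difference between the regions was itself tested. The change of Bhlhe40 from 4 weeks to 3 h was larger in PFC than in hypothalamus by 1.12 ± 0.148 on the log2 scale after vehicle (2.18-fold, adjusted p = 5.33e-06) and by 0.88 ± 0.148 after psilocybin (1.84-fold, adjusted p = 0.0017), by edgeR's test of the interaction. It ranked 1 of all genes in the first and 2 in the second. It was 1 of 8 members called in each, where 0.0369% of all genes (7) and 0.116% (22) were called. Without replicate 5 of hypothalamus after psilocybin at 4 weeks, the second value was 0.94 (adjusted p = 0.000109, edgeR).

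Each mouse was also reduced to 1 value, its PFC minus its hypothalamus level of Bhlhe40 in log2 CPM. After vehicle this value ran from 0.832 to 2.01 in 7 mice at 3 h (median 1.56) and from -0.0514 to 0.739 in 8 mice at 4 weeks (median 0.344). After psilocybin it ran from 0.977 to 1.76 in 8 mice at 3 h (median 1.35) and from 0.195 to 0.749 in 7 mice at 4 weeks (median 0.567). The times did not overlap after either injection. The mean difference was 1.13 after vehicle and 0.80 after psilocybin, each with a 2-sided exact permutation p of 0.000155, the smallest that 6435 arrangements of these mice can give. Since the gene was chosen for this test with its fit known, the permutation p describes the same data in another way.

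**Figure D3:**
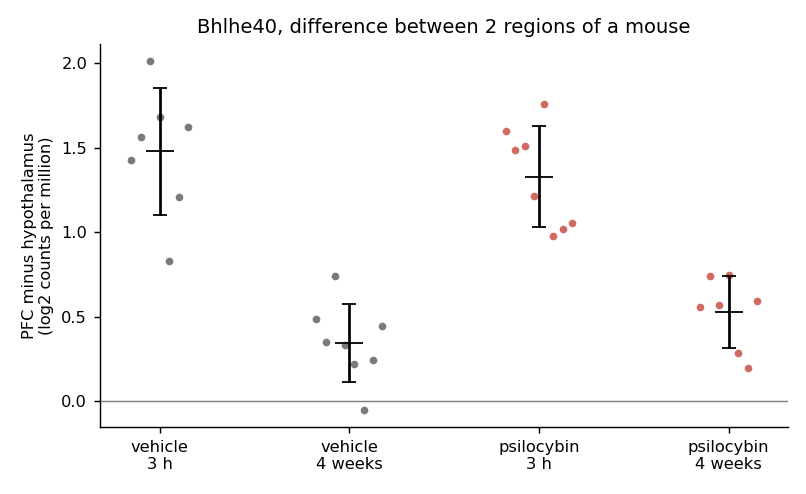
Difference of Bhlhe40 between the PFC and hypothalamus libraries of each mouse (log2 CPM, vertical axis), with vehicle in grey and psilocybin in red and bars for the mean and SD. The 3 h mice lie between 0.832 and 2.01 and the 4-week mice between -0.0514 and 0.749.

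Bhlhe40 did not stand alone among the related gene lists at 3 h in PFC. Of the 15 core clock genes, 2 rose in PFC after vehicle, Per2 by 1.12 and Per1 by 0.76 on the log2 scale, and 0 fell. After psilocybin 3 rose, Per2 by 0.90, Per1 by 0.73 and Nr1d1 (REV-ERBα) by 0.24. In hypothalamus 0 of 15 were called after either injection by edgeR. Per2, which encodes a repressor at the core of the loop, was also the single core clock gene whose change differed between the regions after vehicle (0.85, adjusted p = 0.0116, edgeR), and after psilocybin 0 of 15 were called by that test.

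Genes known to respond to neuronal activity or to glucocorticoids moved in larger numbers. Of 18 immediate early genes, which are switched on within minutes of neuronal firing, 11 rose and 0 fell in PFC after vehicle (median 0.76) and 11 rose after psilocybin (median 0.86), and Egr2 changed by 2.44 and 2.33. In hypothalamus 2 of 18 rose after either injection, Fosb and Fosl2. The summed level of the 18 genes in PFC had medians of 1046 and 1112 CPM at 3 h after vehicle and psilocybin, against 509.9 and 497 CPM at 4 weeks. Of 16 glucocorticoid targets, which include Per1, 9 rose in PFC after vehicle (median 0.67) and 13 after psilocybin (median 0.70), and 8 of 16 rose in hypothalamus after either (medians 0.53 and 0.38). None of these lists had a gene called lower, and the median over all genes was between -0.03 and 0.01. In the test of the difference between regions, 0 of the 16 glucocorticoid targets and 0 of the 18 immediate early genes were called after vehicle, and after psilocybin 0 of 16 and 2 of 18, Arc (2.56, adjusted p = 0.0394, edgeR) and Egr4 (1.79, adjusted p = 0.0182, edgeR).

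Of 9 E-box output genes outside the core, 2 rose in PFC after vehicle, Tsc22d3 by 0.82 and Noct by 0.22, and 1 rose after psilocybin and in each hypothalamic comparison, Tsc22d3 each time, which also stands on the glucocorticoid list. Of the 4 measured targets of the PAR bZIP factors, 0 were called in any of these 4 comparisons. Across the 31 PFC libraries, Bhlhe40 followed the summed level of the immediate early genes with a Spearman rho of 0.861, and of 0.616 once group and pool means were removed. For the core clock sum the values were 0.869 and 0.609, and for the glucocorticoid targets 0.78 and 0.479. In hypothalamus its values were -0.133 and 0.0726 with the immediate early genes, 0.37 and 0.67 with the core clock genes, and -0.202 and -0.117 with the glucocorticoid targets. Libraries share depth and scaling, and these values describe the libraries without a test. Whether activity, hormone or clock genes account for the level of Bhlhe40 was not tested.

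Some markers of other tissue differed between the times in PFC. Of 10 hypothalamic markers, 3 were lower at 3 h after vehicle (Otp, Nkx2-1 and Trh), with a list median of -1.24, and 0 of 10 after psilocybin (median -0.69). These genes are near 0 in PFC, with Nkx2-1 at 0.117 CPM and Otp at 0.115 CPM, against 14.1 and 27.1 CPM in hypothalamus. Of 8 striatal markers 0 were called (medians -0.76 and 0.18), and of 6 microglial markers 1 was higher after each injection. After psilocybin 1 of 6 oligodendrocyte, 1 of 6 astrocyte and 1 of 8 wound healing and immune markers were also higher at 3 h, and 1 of 7 markers of the suprachiasmatic nucleus was lower. Their part in the Bhlhe40 result was not tested.

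The other members gave smaller values between the times. Tef came nearest in PFC after vehicle, with 398 to 490.4 CPM at 3 h (median 442 CPM) and 349 to 478 CPM at 4 weeks (median 403 CPM). The groups overlapped over most of their range. The log2 difference was 0.17 ± 0.0550 (unadjusted p = 0.0036, adjusted p = 0.0652, edgeR), and it passed in DESeq2 (adjusted p = 0.0315) and limma's voom (adjusted p = 0.00815). After psilocybin it was 0.08, and 0.09 and 0.05 in hypothalamus after vehicle and psilocybin.

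Dbp, a PAR bZIP activator with a strong daily rhythm in many tissues, had its largest value between the times in hypothalamus after psilocybin, with the lower mean at 3 h. Its libraries ran from 20.6 to 38.8 CPM at 3 h (median 29.9 CPM) and from 24.1 to 60.7 CPM at 4 weeks (median 38.6 CPM), and they overlapped. The log2 difference was -0.42 ± 0.133 (unadjusted p = 0.00272, adjusted p = 0.099, edgeR). Without replicate 5 of the 4-week group, the highest library, it was -0.33 (adjusted p = 0.326). After vehicle it was -0.20 in hypothalamus and -0.11 in PFC, and after psilocybin it was 0.06 in PFC. The difference of the change between the regions after psilocybin was 0.48 ± 0.192 (adjusted p = 0.221, edgeR), and 0.39 (adjusted p = 0.484) without that library.

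Ciart, the CLOCK and BMAL1 repressor, had opposite signs in the regions after vehicle. In PFC its libraries ran from 8.41 to 14.4 CPM at 3 h (median 11.8 CPM) and from 7.18 to 11.3 CPM at 4 weeks (median 10.3 CPM). In hypothalamus they ran from 6.68 to 9.83 CPM at 3 h (median 8.14 CPM) and from 8.20 to 12.4 CPM at 4 weeks (median 9.39 CPM). The groups overlapped in both regions. The log2 differences were 0.27 (adjusted p = 0.177) and -0.25 (adjusted p = 0.591), and their difference was 0.53 ± 0.168 (unadjusted p = 0.00276, adjusted p = 0.408, edgeR). Ciart thus did not pass in either region, and the difference between regions did not pass over all genes.

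Hlf had a log2 difference of 0.21 ± 0.0943 in PFC after psilocybin, which did not pass (adjusted p = 0.19, edgeR), with 219 to 290.4 CPM at 3 h and 176 to 259 CPM at 4 weeks. For Nfil3, the differences ranged from 0.06 to 0.21 over the 4 comparisons, and that in hypothalamus after psilocybin went from 0.17 to 0.32 without replicate 5 of the 4-week group (unadjusted p = 0.00548, adjusted p = 0.21, edgeR). For Bhlhe41 they ranged from -0.11 to 0.11 and for Rora from -0.28 to 0.23, where the 0.23, in hypothalamus after psilocybin, was 0.11 without that library. None of these passed edgeR's test. By edgeR's test, Bhlhe40 in PFC was thus the single member called between the times.

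A second separation concerned the RNA extraction pools, which the sample labels give, and it was examined after the per-pool values had been seen. PFC libraries of cages 1 to 4 were extracted as pool C and those of cages 5 to 8 as pool D, and hypothalamus libraries of the same cages as pools A and B, so pool and cage set cannot be told apart. Every group is split between the 2 pools of its region, and pool within region was a term in every fit above. Since no pool holds both regions, region and pool cannot be told apart. Between the pools 2 of 8 members were called in PFC, where 24.9% of all genes were called, and 1 of 8 in hypothalamus, where 17.4% were. The share of members called was thus near that of all genes.

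Dbp was the member called in both regions. In PFC it ran from 17.3 to 34.1 CPM in pool C (median 24.8 CPM, n = 15) and from 26.0 to 56.8 CPM in pool D (median 35.0 CPM, n = 16). In hypothalamus it ran from 20.6 to 46.5 CPM in pool A (median 27.6 CPM, n = 15) and from 29.1 to 60.7 CPM in pool B (median 37.6 CPM, n = 16). The pools overlapped in part in both regions. Dbp was higher in pool D by 0.50 ± 0.0965 (1.41-fold, adjusted p = 0.000178) and in pool B by 0.37 ± 0.0961 (1.29-fold, adjusted p = 0.00667), by edgeR's test with group as a term.

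**Figure D4:**
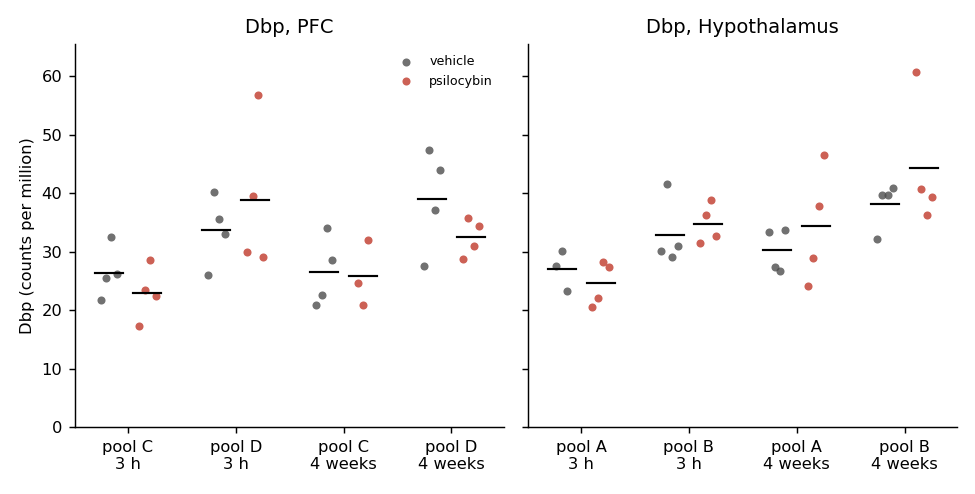
Dbp level in CPM (vertical axis) in each library of PFC (left) and hypothalamus (right), by extraction pool and time, with vehicle in grey and psilocybin in red. Horizontal bars are means of 3 or 4 libraries. The pool of cages 5 to 8 has the higher mean at both times in both regions and under both injections, with overlap of single libraries.

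Bhlhe41 was higher in pool D than in pool C by 0.27 ± 0.0603 (adjusted p = 0.000842, edgeR), at 23.1 ± 2.77 CPM (n = 16) against 19.1 ± 3.08 CPM (n = 15). In hypothalamus its difference was 0.09 (adjusted p = 0.273). Hlf in hypothalamus stood at 0.18 ± 0.0659 (adjusted p = 0.0501, edgeR) and at 0.20 (adjusted p = 0.0272, edgeR) without replicate 5 of the psilocybin group at 4 weeks. It passed in 14 of the 31 fits that each left out 1 hypothalamus library. Among core clock genes, Nr1d1 was higher in the pool of cages 5 to 8 in both regions (0.13 and 0.18), while Arntl (-0.14) and Per2 (-0.24) were lower in PFC and Per3 (-0.24) in hypothalamus.

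Many other lists differed between the PFC pools. All 6 oligodendrocyte, all 6 astrocyte and all 6 microglial markers and 7 of 8 striatal markers were higher in pool D, and 3 of 6 markers of cortical excitatory neurons were lower. Of 18 immediate early genes 6 were lower and 1 higher in pool D (median -0.26 on the log2 scale), 5 of 16 glucocorticoid targets were higher, and 4 of 8 wound healing and immune genes were higher (median 0.76). Of 6 choroid plexus markers 1 was higher (median 0.76). Between the hypothalamic pools 2 of 6 astrocyte and 4 of 6 microglial markers were higher, and 3 of 10 hypothalamic markers were higher and 2 lower, while 3 of 8 wound healing and immune genes were higher (median 0.55). Across PFC libraries, Bhlhe41 followed the summed astrocyte markers with a Spearman rho of 0.708 (0.646 within groups and pools) and the cortical excitatory markers with -0.733 (-0.606). Dbp had a rho of 0.635 with the choroid plexus markers (0.369 within groups and pools), of 0.59 with the microglial markers (0.136), of 0.577 with the wound healing and immune genes (0.052) and of -0.456 with the immediate early genes (-0.385). The part of these genes in the differences of Dbp and Bhlhe41 was not tested, and in such bulk samples fewer cells of a type and less RNA per cell cannot be told apart.

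The 2 regions of a mouse share an animal and a time of death, so the members were also compared across regions over the 30 mice with both libraries, after group and pool means were removed. Dbp had a Pearson r of 0.424 between the regions (permutation p = 0.0159, adjusted over the 8 members 0.121) and a Spearman rho of 0.428 (permutation p = 0.02, adjusted 0.118). Without the 2 mice farthest from the median in PFC the r was 0.326, and without the mouse of hypothalamus replicate 5 it was 0.541. Bhlhe41 had an r of 0.428 (permutation p = 0.0303, adjusted 0.121), a rho of 0.421 (permutation p = 0.0295, adjusted 0.118) and an r of 0.388 without the 2 mice farthest from the median in PFC. The other 6 members lay between -0.05 and 0.19. None passed the adjustment. With pool means left in, the values of Dbp and Bhlhe41 were 0.676 and 0.569.

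How the members varied with one another was described by correlating what was left of log2 CPM after group and pool means were removed, over the 31 libraries of a region. In PFC, Dbp went with Tef (Pearson r 0.542) and Ciart (0.457), and Tef with Ciart (0.423), while Nfil3, the competing repressor, went against Dbp (-0.445). Rora went against Tef (-0.672), Hlf went against Tef (-0.519) and with Rora (0.754), and Bhlhe40 went with Ciart (0.434). In hypothalamus Dbp again went with Ciart (0.52), and Rora went with Hlf (0.917) and Bhlhe40 (0.787). Other PFC pairs differed there, with values of 0.359 for Dbp and Nfil3, 0.201 for Tef and Rora, 0.142 for Tef and Hlf, 0.096 for Dbp and Tef, 0.087 for Bhlhe40 and Ciart, and -0.08 for Tef and Ciart. These values share depth, scaling and dissection between the points, and carry no test. What lies behind the pairing of Dbp and Ciart in both regions was not tested.

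The genes most like each member by Spearman rho of the same values, over all tested genes, were as follows, and 1 of those named is a core clock gene. In PFC, Ciart was nearest to Nr1d1 (0.692), which encodes a clock repressor. Bhlhe40 was nearest to Ier5 (0.787), an immediate early gene, and Nuak1 (0.744) was also among its 3 nearest genes. Among core clock genes, Bhlhe40 had values of 0.616 with Per1, 0.582 with Per2 and 0.547 with Nr1d1 in PFC, and Ciart had 0.612 with Per1. Dbp was nearest to Tigd5 (0.748), Tef to Ube2z (0.838), Hlf to Fam120a (0.853), Nfil3 to Etnk2 (0.665) and Bhlhe41 to Gm266 (0.80). Rora was nearest to Trim37 (0.904), and its value with the related receptor gene Rorb was 0.881.

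In hypothalamus, Rora was nearest to Plekhg1 (0.971), Ptpn4 (0.963) and Clmn (0.95), the highest values of any member. Hlf was nearest to Rassf3 (0.919) and Bhlhe40 to Amotl1 (0.833). Tef was nearest to Plppr4 (0.86), Ciart to Slc25a22 (0.789), Nfil3 to D830036C21Rik (0.761), Dbp to Cda (0.706) and Bhlhe41 to Gm16279 (0.65). The highest of these values thus belonged to Rora and Hlf.

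Rora, Hlf and, less closely, Bhlhe40 in hypothalamus varied with markers of thalamus, a tissue next to the hypothalamus. The summed level of 7 thalamus markers ran from 192 to 661 CPM over the 31 hypothalamus libraries and from 92.4 to 144 CPM in PFC. Rora ran from 60.0 to 204 CPM over the same hypothalamus libraries. The library with the lowest marker sum (192 CPM) had Rora at 80.4 CPM, and the one with the highest (661 CPM) had it at 197 CPM. Pearson's r between log2 Rora and the log2 marker sum was 0.80 over 31 libraries and 0.951 over 30, without replicate 5 of the psilocybin group at 4 weeks. For Hlf the values were 0.866 and 0.918, and for Bhlhe40 0.476 and 0.562. Spearman's rho, over all 31 libraries, was 0.884 for Rora, 0.881 for Hlf and 0.529 for Bhlhe40. Within groups and pools it was 0.871, 0.862 and 0.697 in that order. Other lists moved with them too. The rho of Rora and Hlf was 0.688 and 0.704 with the markers of cortical excitatory neurons, 0.505 and 0.53 with those of the suprachiasmatic nucleus, and -0.634 and -0.581 with those of hypothalamus. The sum of the suprachiasmatic list is not particular to that nucleus. Its group medians ran from 85.2 to 119 CPM in PFC and from 103 to 112 CPM in hypothalamus. In PFC, where the thalamus sum was lower, its rho was 0.429 with Rora, 0.486 with Hlf, 0.628 with Bhlhe41 and 0.0419 with Bhlhe40, and 0.601, 0.571, 0.512 and 0.00363 within groups and pools. The thalamus list holds Plekhg1, the gene nearest to Rora, and Rorb, of the same gene family. With the sum of the other 5 markers, an alternative chosen after seeing the data, Pearson's r in hypothalamus (over 31 and 30 libraries) was 0.749 and 0.944 for Rora, 0.831 and 0.911 for Hlf, and 0.434 and 0.56 for Bhlhe40. This sum was not computed for PFC, where Rorb had the highest median of the 7 markers (47.0 CPM, against 4.95 CPM for Tcf7l2).

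**Figure D5:**
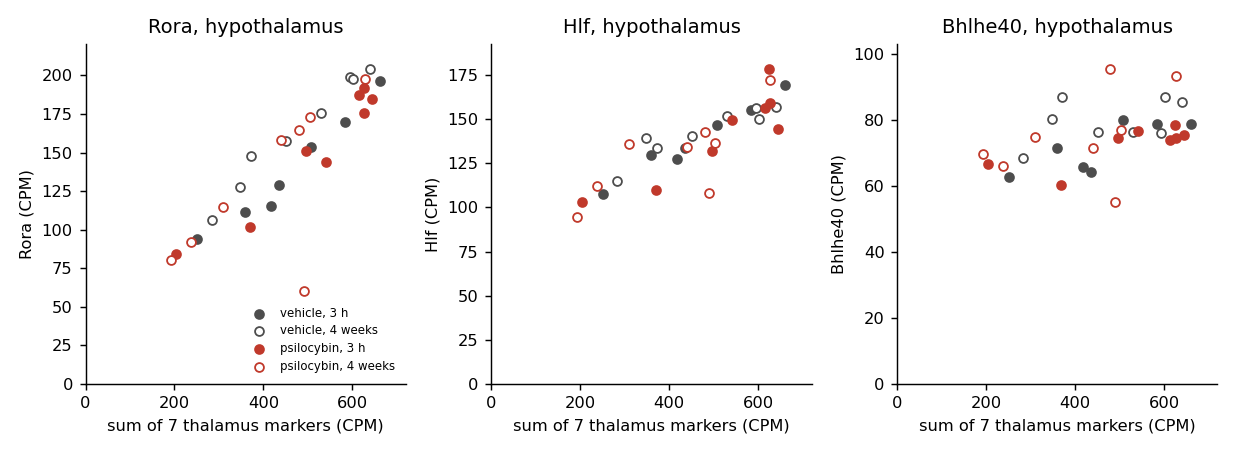
Rora, Hlf and Bhlhe40 (vertical axes, CPM) against the summed level of 7 thalamus markers (horizontal axes, CPM) in each of 31 hypothalamus libraries, with vehicle in grey, psilocybin in red, 3 h filled and 4 weeks open. Rora and Hlf rise with the sum, and 1 open red point, replicate 5 of the 4-week psilocybin group, lies below the others at a sum of 490.1 CPM and a Rora level of 60.0 CPM.

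Replicate 5 of that group had Rora at 60.0 CPM, Hlf at 108 CPM and Bhlhe40 at 55.2 CPM, the lowest of the 31 for Rora and Bhlhe40, at a thalamus marker sum of 490.1 CPM. The same library had the highest Dbp (60.7 CPM) and Nfil3 (12.4 CPM) of hypothalamus. Values of Rora, Hlf and Bhlhe40 in hypothalamus above, among them the psilocybin difference of Rora at 4 weeks, stand beside this range of thalamus markers, whose part in them was not tested.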

How the data were processed

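Libraries were made with a stranded poly(A) kit, and the authors aligned reads with STAR 2.7.2b to GRCm38 and deposited raw counts per gene from featureCounts 1.6.2 with GENCODE gene models (bcl2fastq 2.20.0 for base calls, per the labels). Here, the deposited counts of 62 libraries (8061033 to 70361839 counted reads) were tested with edgeR 4.0.16 in R 4.3.3: TMM scaling, filterByExpr by group (minimum count 10, 18971 genes kept) and a robust quasi-likelihood fit with group and extraction pool as terms, Benjamini-Hochberg adjusted over all genes. limma 3.58.1 (voom) and DESeq2 1.42.0 were alternatives, and the code was tested on simulated data. CPM are TMM-scaled, and log2 CPM carry a prior count of 2. The members and gene lists were chosen with earlier results of these data known. Named genes are the members, the 3 tested genes most like each (at least the nearest is printed) and up to 4 called genes of a pathway list by p. Libraries come from separate mice, 2 regions of each, matched by cage, treatment and time. Cage numbers did not pair libraries of a region (median r of same-cage deviations -0.03 over 45 pairs in each region).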

Additional observations from a re-analysis of the deposited data

Results flagged for a closer look

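Bhlhe40, the E-box repressor, was flagged because its change between 3 h and 4 weeks differed between the regions, by 1.12 (log2, PFC minus hypothalamus) after vehicle and by 0.88 after psilocybin, both past the threshold of edgeR's interaction test. After either injection all 3 h libraries of PFC lay above all 4-week libraries of PFC, and the hypothalamus groups overlapped.

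Single libraries far from the rest of their group were sought in 64 groups (8 members in 8 groups), and 4 were found, where chance gives about 1 in 20. Hlf in PFC after psilocybin at 4 weeks was 175.6 CPM in replicate 7, below the 220.4 to 258.7 CPM of the others. Ciart in the same group was 13.36 CPM in replicate 4, above the 8.22 to 9.759 CPM of the others. Nfil3 in hypothalamus after psilocybin at 4 weeks was 12.41 CPM in replicate 5, above 6.166 to 7.997 CPM, in the library that also had the lowest Rora and the highest Dbp of that region. Bhlhe41 in hypothalamus after vehicle at 3 h was 39.91 CPM in replicate 3, below a narrow range of 41.86 to 43.16 CPM. These 4 libraries held 14295776 to 27490537 counted reads. What sets these libraries apart was not tested.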

How the results depend on the processing

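The Bhlhe40 calls held in each of 10 other settings and with each library left out in turn: 0.84 to 0.96 and 0.90 to 1.02 in PFC after vehicle, 0.78 to 0.87 and 0.73 to 0.85 after psilocybin, and between regions 0.99 to 1.14 and 1.07 to 1.19 after vehicle and 0.82 to 0.97 and 0.78 to 0.94 after psilocybin. No log2 difference of a member with an unadjusted p under 0.05 changed sign in any of these settings. In PFC after vehicle between the times, 2 members instead of 1 were called, Tef being added, by DESeq2, by voom and without 2 libraries (hypothalamus after psilocybin at 4 weeks replicate 5 and PFC after psilocybin at 3 h replicate 7, chosen after seeing the data), and 1 to 2 with single libraries left out. In hypothalamus after vehicle, 1 instead of 0 was called by voom (Nfil3) and by a fit of the compared groups alone (Bhlhe40, -0.18). The cause was not tested. Dbp between regions passed in 5 of 10 settings (-0.17 to -0.11). The pool calls of Dbp and Bhlhe41 passed in all 5 settings tried, and Hlf in hypothalamus in 4 of them. With the cage as replicate block, the Bhlhe40 values were 0.96 and 0.79 in PFC and 1.12 and 0.83 between regions, and no member call changed. Genes called after psilocybin between regions fell from 22 to 7 under this block. Called genes over the other settings ranged from 310 to 1900 in PFC after vehicle and 552 to 3614 after psilocybin, from 53 to 1375 and 31 to 624 in hypothalamus, from 2 to 25 and 4 to 112 between regions, and for psilocybin in PFC at 3 h from 0 to 1232 (voom), at 4 weeks 0 to 19 and in hypothalamus at 4 weeks 0 to 13. With single libraries left out, called genes between the times ranged from 480 to 1378 in PFC after vehicle and 706 to 1292 after psilocybin. In hypothalamus they ranged from 67 to 119 and 131 to 368, and between regions from 6 to 16 and 8 to 36. The lowest counts of Nfil3 and Ciart in a library were 56 and 73 reads.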
